A study of Mus musculus with 9 samples.

Results

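The p53 pathway, the BCL2 family, the death receptors, the caspases and their inhibitors were followed through RNA sequencing of mouse brain. The set is a list of 42 named genes among 18138 genes in the table. It was chosen by symbol with earlier results of these data known, though not by a threshold. All 42 were in the table, and 40 of them passed a filter on low counts and were tested together with 14756 genes in all. Gdf15, with 73 counts over all libraries, and Bik, with 48 counts, were not tested. Of the 40 tested genes, 39 reached the filter's level in at least 3 libraries outside the MCAO group, and Eda2r did so only with the MCAO libraries.

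Brain tissue was sampled from 3 groups of 3 libraries. The control group carries no further description in the labels. The MCAO group had middle cerebral artery occlusion, a surgical model of ischaemic stroke, and the hypidone group underwent the same surgery and afterwards received hypidone hydrochloride over 7 days (5 mg/kg). Hypidone hydrochloride, also called YL-0919, is an antidepressant candidate that acts on serotonin signalling, and the study set it against ischaemia-reperfusion injury. The labels give no strain, age, sex, brain region or hemisphere, and no duration of occlusion, sham surgery or vehicle. They also do not tie libraries to animals, so the p-values measure only the spread between these libraries, which may be technical.

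The transcription factor p53 is held low in resting cells by Mdm2, a ubiquitin ligase, and by its partner Mdm4, and after damage it switches on genes for cell cycle arrest, repair and death. Its best known death targets encode BH3-only proteins, which free the effectors Bax and Bak1 from their anti-apoptotic relatives so that these open the outer mitochondrial membrane. Cytochrome c then leaves the mitochondrion, binds Apaf1 and activates Casp9, while death receptors at the cell surface work through Casp8. In the brain this machinery removes neurons during development and takes part in neuron loss after ischaemia.

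The libraries held 32075682 to 37325027 counts. Levels are given below as CPM, a gene's counts scaled to a common library total, after TMM scaling, which corrects for library size and composition, always in the order control 4, 5 and 6, MCAO 4, 5 and 6, and hypidone 2, 7 and 8. Neuron markers were high in all libraries, as the tissue label asks, with summed levels of 5894 to 12621 CPM over 10 genes. MCAO 5 stood apart: its 10 markers of infiltrating macrophages and monocytes summed to 2072 CPM, against 62.2 in MCAO 4, 273.6 in MCAO 6 and at most 136.3 elsewhere, and its 10 microglia markers to 2989 CPM, against 723.7, 1391 and at most 732.9. None of these markers was at 0 in all libraries. Control 5 also stood apart, with 683.5 CPM over 8 hippocampal neuron markers against 224.8 to 369.4 elsewhere, and 193.8 CPM over 6 choroid plexus markers against at most 16.5. Its 8 oligodendrocyte markers summed to 7271 CPM, against 2740 to 4581 elsewhere. Its neuron markers summed to 8249 CPM, against 12483 in control 4 and 12621 in control 6.

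With MCAO, 13 of the 40 tested genes rose against control and 2 fell, by edgeR's quasi-likelihood test with Benjamini-Hochberg adjustment over all genes at 0.05. Over all genes tested, 10.6% rose and 9.81% fell, so the share of these genes that rose (32.5%) was above the background and the share that fell (5%) was below it. The list was chosen with earlier results of these data known, so this excess describes the list and is not independent support. The members' median log2 fold change was 0.42, against 0.011 over all genes. The 3 MCAO libraries lay above all 3 control libraries for 19 of the 40 genes, against 16.5% of all genes, and below them for 2, against 17%. Those that rose were Cdkn1a, Trp53inp1, Perp, Bak1, Bbc3, Pmaip1, Bcl2l11, Bmf, Bcl2l1, Mcl1, Tnfrsf10b, Fas and Birc3, and those that fell were Zmat3 and Cycs. Markers of other cell types moved with the group as well: 5 of 10 of microglia, 4 of 9 tested of infiltrating macrophages and monocytes, 3 of 7 of endothelium and 2 of 8 of astrocytes rose with MCAO, and 1 of 10 of neurons fell. Endothelial markers summed to 134.4 to 236.9 CPM in control, 216.5 to 503.8 in MCAO and 201.0 to 246.0 with hypidone, and astrocyte markers to 4109 to 4935, 4392 to 8122 and 4671 to 5090 CPM. Their part in the members' changes was not tested. In this bulk tissue, fewer cells of a type and less RNA per cell cannot be told apart.

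With hypidone, 14 of the 40 genes were lower than in MCAO and 2 were higher by the same test. Over all genes, 8.28% were lower and 8.23% higher, so again the members' share on one side (35%) was above the background and on the other (5%) below it. The same limit from the choice of members holds here. Of the same marker lists, 5 of 10 of microglia, 3 of 9 of macrophages, 1 of 7 of endothelium and 2 of 8 of astrocytes were lower with hypidone, and 2 of 10 of neurons higher. The members' median log2 fold change was -0.54, against -0.035 over all genes. The hypidone libraries lay below the MCAO libraries for 20 genes, against 19% of all genes, and above them for 2, against 20.9%. Below, "passed" and "called" refer to edgeR's test unless another tool is named. The other tools called more of all genes: with MCAO, DESeq2 16.1% higher and 14.2% lower and limma voom 24.7% and 25.6%, and with hypidone, DESeq2 12.5% higher and 14.7% lower and limma voom 26.5% and 25.2%. A call by those tools alone is read against these shares. Both comparisons use the same 3 MCAO libraries, so their values are given side by side and their opposite signs are not independent. Of the 13 genes higher with MCAO, 12 were lower with hypidone and Perp did not pass there. Zmat3 and Cycs, lower with MCAO, were higher with hypidone, and Sesn2 and Birc2 were lower with hypidone only, although the difference between the 2 comparisons was not tested.

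**Figure D1:**
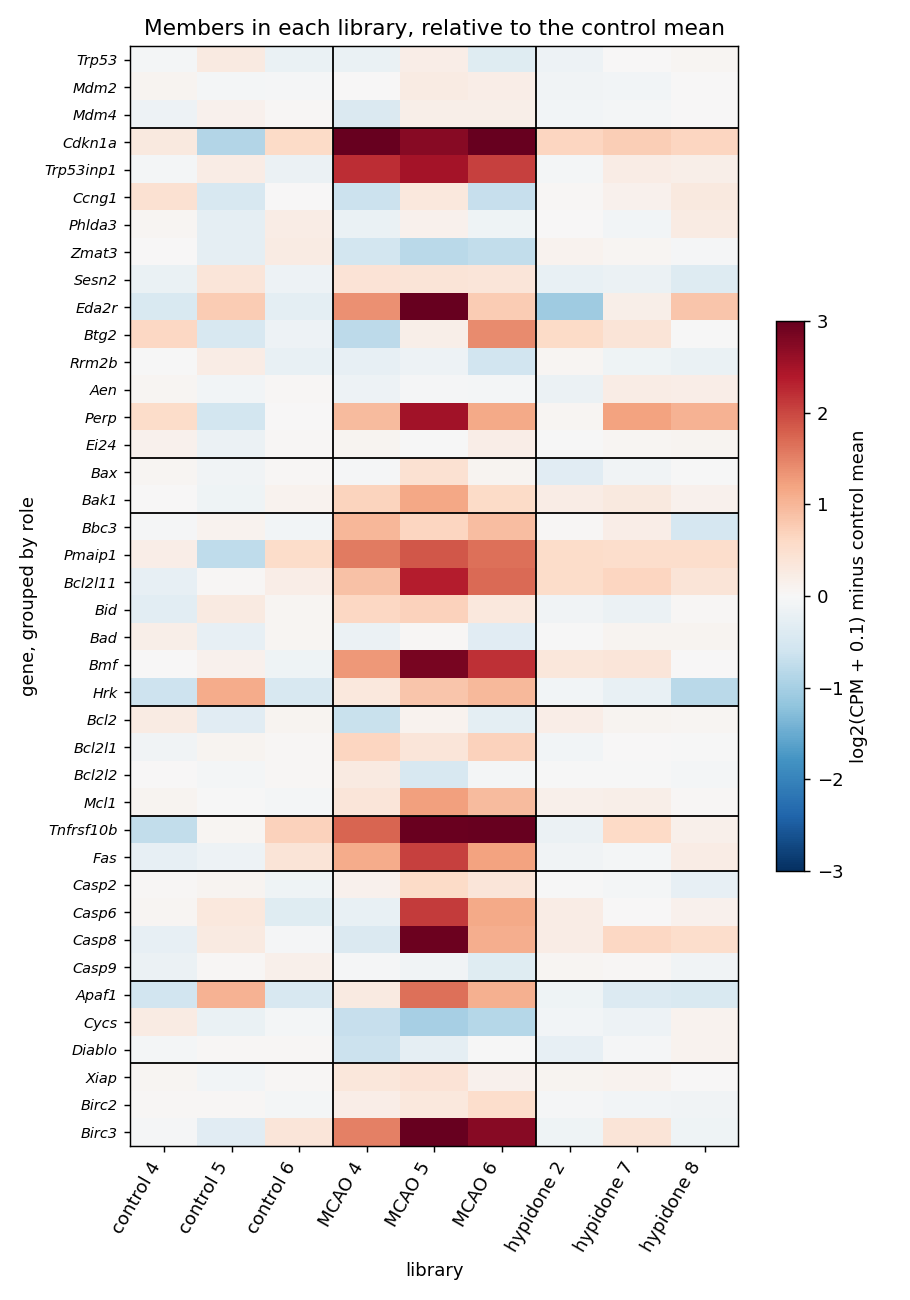
Level of each of the 40 tested genes in each of the 9 libraries, as log2(CPM + 0.1) minus the mean of the 3 control libraries, with genes in rows grouped by role and colours limited at 3 in each direction. The 3 MCAO columns hold nearly all the strong red, and MCAO 5 is the reddest for Casp8, Casp6 and Bcl2l11. No cell is strongly blue, with the lowest value at -1.06 for Eda2r in hypidone 2.

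**Figure D2:**
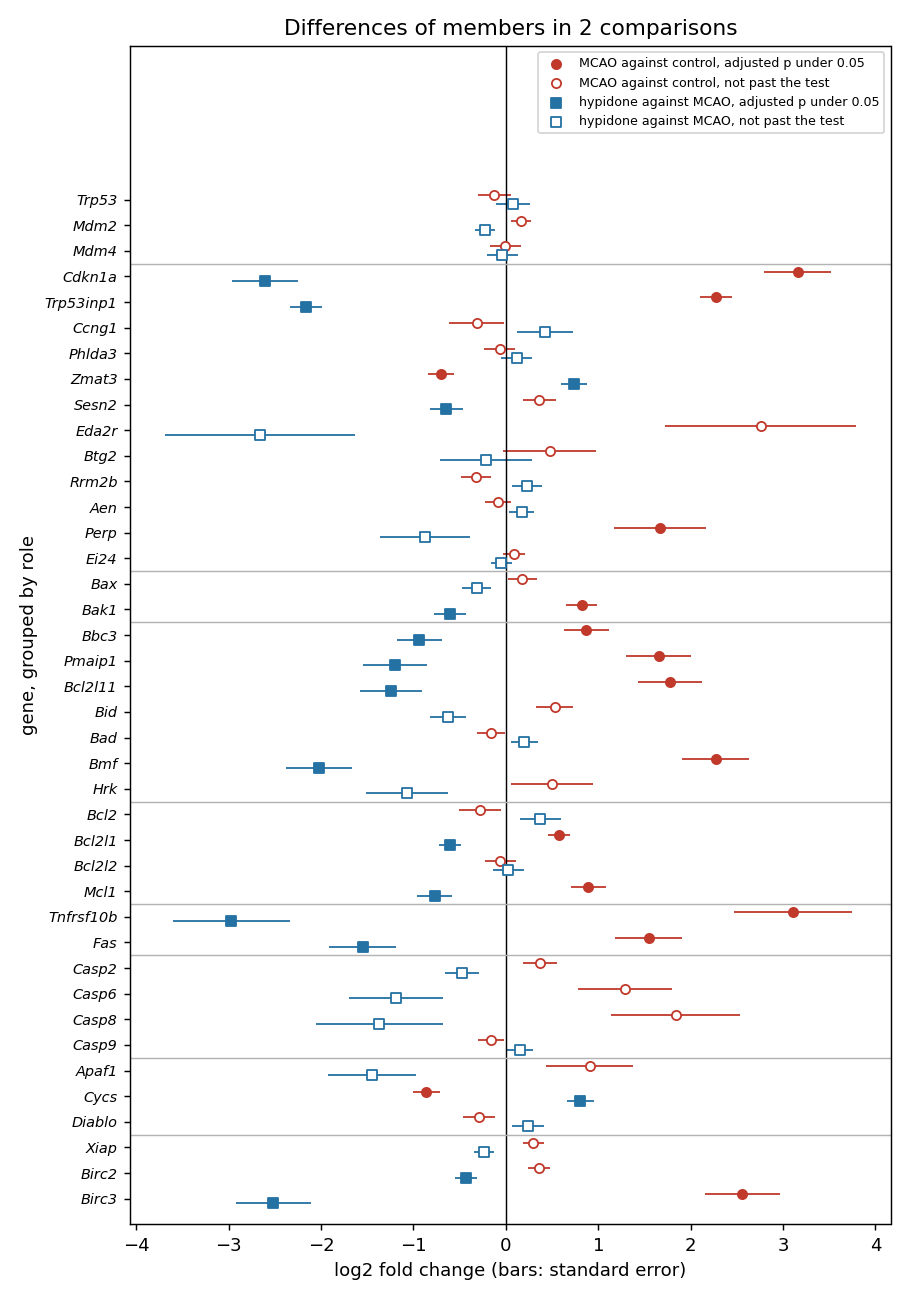
Log2 fold change of each tested gene with its standard error, for MCAO against control (circles) and hypidone against MCAO (squares), with filled marks for an adjusted p under 0.05. The filled marks mirror each other about 0 for 14 genes, and both comparisons share the MCAO libraries.

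Neither the p53 gene nor its inhibitors passed edgeR's test in either comparison; limma voom called Trp53 higher and Mdm2 lower with hypidone. Trp53 measured 20.4, 25.6 and 18.7 CPM in control, 18.5, 24.4 and 16.5 in MCAO, and 19.1, 21.5 and 22.1 with hypidone. The 3 groups overlapped, and its log2 fold change with MCAO was -0.12 ± 0.18 (SE; edgeR adjusted p = 0.658). Mdm2, itself a p53 target as well as the ligase that degrades p53, had the lowest p of the 3, at 48.5, 44.1 and 44.4 CPM in control, 46.3, 54.5 and 52.7 in MCAO, and 42.2, 43.3 and 46.1 with hypidone. All hypidone libraries lay below all MCAO libraries, but MCAO 4 lay within the control range, and neither difference passed (0.16 ± 0.11 with MCAO, edgeR adjusted p = 0.299, and -0.22 ± 0.11 with hypidone, adjusted p = 0.176). Mdm4 was at 40.3, 48.6 and 45.6 CPM in control, 32.9, 50.3 and 50.5 in MCAO, and 42.6, 42.7 and 45.1 with hypidone, with MCAO 4 the lowest of all (-0.01 ± 0.17 with MCAO, edgeR adjusted p = 0.979). Protein levels and p53 activity were not measured here.

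Of the 13 p53 targets, 12 were tested, and with MCAO 3 rose, 1 fell and 8 did not pass edgeR's test. Cdkn1a, the cyclin-dependent kinase inhibitor that arrests the cell cycle (chromosome 17, 29090976 to 29100727, plus strand, GRCm38), had the largest change of all tested members with MCAO. Its levels were 18.05, 7.85 and 21.9 CPM in control, 169.8, 96.8 and 160.0 in MCAO, and 22.8, 24.6 and 22.7 with hypidone. Every MCAO library was far above every library of the other groups, and each hypidone library lay just above the highest control library. The log2 fold change was 3.16 ± 0.37 with MCAO (edgeR adjusted p = 0.00269) and -2.60 ± 0.36 with hypidone against MCAO (adjusted p = 0.00547). Trp53inp1, a stress-induced partner of p53 that also acts in autophagy (chromosome 4, 11156431 to 11174379, plus strand), had the lowest p of all members. It measured 11.9, 14.4 and 10.8 CPM in control, 57.7, 70.2 and 51.5 in MCAO, and 11.9, 14.3 and 13.9 with hypidone. The MCAO libraries stood far above an even band of 6 others, with log2 fold changes of 2.27 ± 0.17 (edgeR adjusted p = 0.00121) and -2.16 ± 0.17 (adjusted p = 0.00152).

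Perp, a membrane protein of cell junctions, was the third target that rose. Its levels were 6.20, 2.88 and 4.24 CPM in control, 8.27, 24.7 and 9.39 in MCAO, and 4.38, 9.92 and 8.79 with hypidone. MCAO 5 was the high library, and the hypidone libraries overlapped both other groups. Its log2 fold change was 1.67 ± 0.50 with MCAO (edgeR adjusted p = 0.0443) and -0.88 ± 0.49 with hypidone (adjusted p = 0.233). Without MCAO 5 the first became 1.01 and missed the threshold (adjusted p = 0.0964), and it also missed without control 4 (0.0693), control 5 (0.0983), control 6 (0.125), MCAO 6 (0.0635), hypidone 7 (0.0651) or hypidone 8 (0.071). In those 6 other cases the log2 fold change was 1.43 to 1.98.

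Zmat3, an RNA-binding zinc finger protein, went the other way from the rest of the called targets. It measured 104.6, 86.3 and 121.9 CPM in control, 70.8, 59.0 and 61.8 in MCAO, and 111.5, 107.8 and 100.3 with hypidone. All MCAO libraries were below all others, with log2 fold changes of -0.71 ± 0.14 (edgeR adjusted p = 0.0119) and 0.74 ± 0.14 (adjusted p = 0.0126). Sesn2, a sestrin that restrains mTOR signalling under stress, was at 10.96, 16.2 and 11.4 CPM in control, 16.7, 16.5 and 16.3 in MCAO, and 10.9, 11.2 and 9.61 with hypidone. The MCAO libraries were nearly equal, and control 5 came close to them. The difference with MCAO, 0.36 ± 0.18, did not pass (edgeR adjusted p = 0.176). It passed without control 5, at 0.56 (adjusted p = 0.0419), and by limma voom, whereas the difference with hypidone, -0.64 ± 0.18, did (adjusted p = 0.0417).

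Other well known p53 targets did not pass edgeR's test over all libraries. DESeq2 called Eda2r higher with MCAO, but Eda2r passed the filter only with the MCAO libraries, so that call is not support for a rise. Limma voom called Btg2 higher and Ccng1 and Rrm2b lower with MCAO, and each of these 3 in the opposite direction with hypidone. Ccng1, an atypical cyclin, was at 184.2, 96.3 and 135.0 CPM in control, 85.4, 165.4 and 82.8 in MCAO, and 136.2, 145.6 and 164.6 with hypidone, with MCAO 5 apart from the other two MCAO libraries (log2 fold change -0.32 ± 0.30 with MCAO, edgeR adjusted p = 0.477). Without MCAO 5 the difference with hypidone was 0.81 and passed (adjusted p = 0.0446). Eda2r, a receptor of the TNF receptor family, had the lowest level of the tested targets, at 0.0958, 0.353 and 0.120 CPM in control, 0.597, 3.00 and 0.357 in MCAO, and 0.0288, 0.207 and 0.381 with hypidone. Its 190 counts in all and the single high value in MCAO 5 left a log2 fold change of 2.76 ± 1.03 that did not pass (edgeR adjusted p = 0.0865). Ei24, a protein of the endoplasmic reticulum with the highest level of all members per length, was at 146.5, 117.1 and 137.5 CPM in control, 141.3, 131.5 and 153.4 in MCAO, and 131.1, 139.2 and 142.1 with hypidone. Together with Phlda3, an inhibitor of Akt signalling, Btg2, an antiproliferative early response gene, Rrm2b, a ribonucleotide reductase subunit, and Aen, a nuclease, it had log2 fold changes of -0.32 to 0.47 with MCAO, and none of the 5 passed. The untested Gdf15, a secreted stress cytokine, reached 1.46 CPM in MCAO 5 and at most 0.148 CPM elsewhere.

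**Figure D3:**
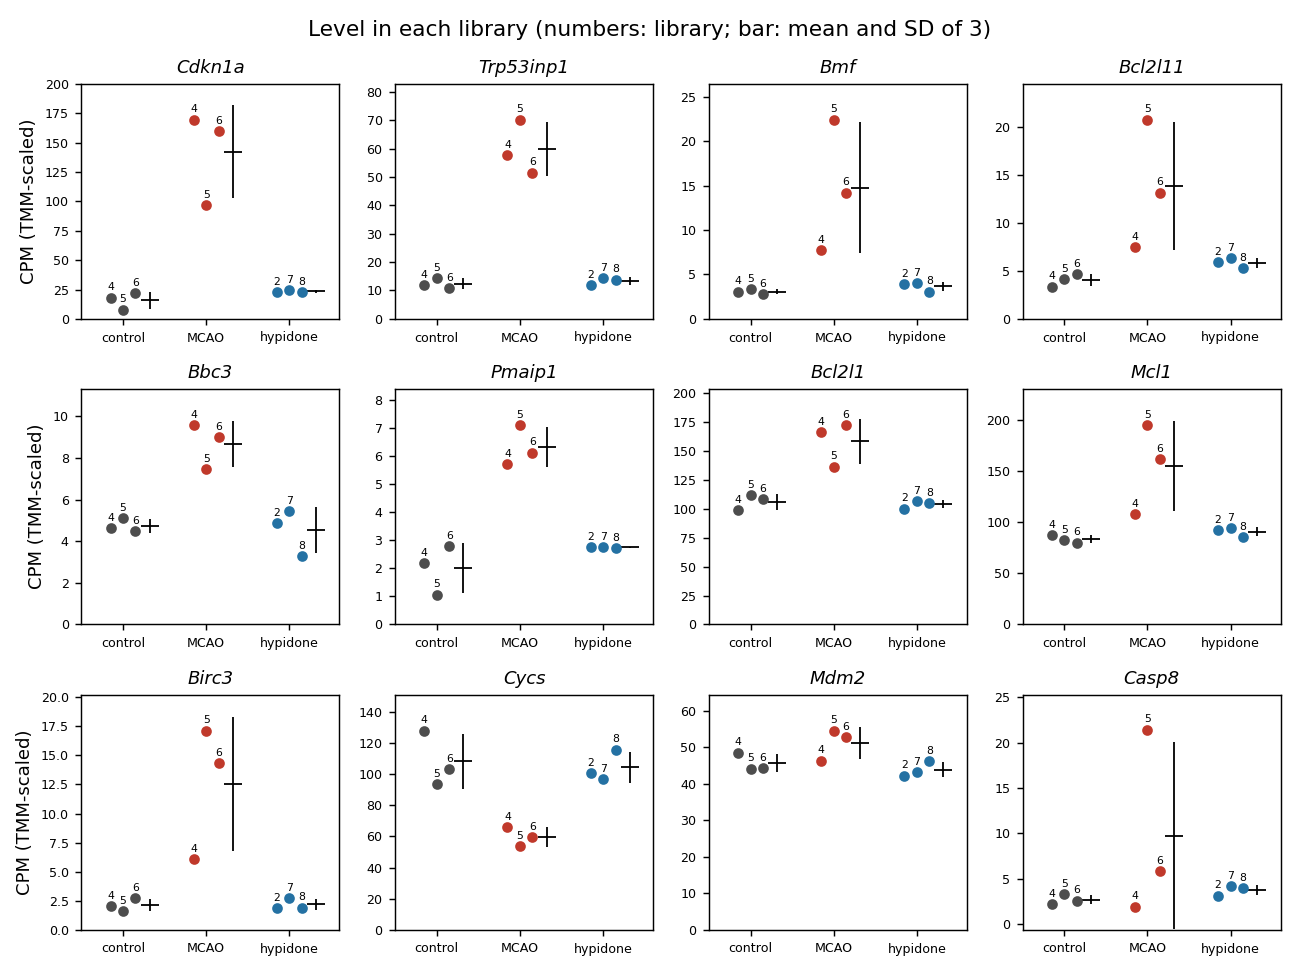
CPM of 12 genes in each library (numbered points), with the mean and SD of the 3 libraries of a group as a cross beside them. Cdkn1a and Trp53inp1 separate MCAO from both other groups, while Mdm2 stays between 42.2 and 54.5 CPM and Casp8 is highest in MCAO 5 and lowest in MCAO 4.

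Promoter sequence was read for the members as a description. RefSeq promoters (GRCm38.p6, the 250 bases before each start) were found for 35 of the 42 genes, as 50 promoters. No entry was found for Trp53inp1, Zmat3, Rrm2b, Perp, Pmaip1, Bik and Tnfrsf10b. A p53 half-site, the unit that p53 response elements repeat, was in 8 of the 50 promoters (16.0%), against 7.13% of all 32851 promoters. Known p53 targets are on the list, so this share is not independent of how the members were chosen. Of the genes that rose with MCAO, 9 had a promoter and 2 held a half-site, Cdkn1a and Bmf, while 6 of the 24 that edgeR did not call with MCAO held one: Trp53, Mdm2, Ccng1, Aen, Ei24 and Bax. A window of 5 of these genes is shown, for both genes that rose and for 3 that did not, with the half-sites in capitals and all bases 5′ to 3′ on the gene's own strand.
Cdkn1a chr17:29090856-29090965, plus strand: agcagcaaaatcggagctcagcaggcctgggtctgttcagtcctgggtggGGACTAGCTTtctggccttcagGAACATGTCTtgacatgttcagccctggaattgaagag
Bmf chr2:118544741-118544837, minus strand: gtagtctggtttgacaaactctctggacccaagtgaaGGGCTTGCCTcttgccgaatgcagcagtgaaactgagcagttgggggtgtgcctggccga
Mdm2 chr10:117710885-117710994, minus strand: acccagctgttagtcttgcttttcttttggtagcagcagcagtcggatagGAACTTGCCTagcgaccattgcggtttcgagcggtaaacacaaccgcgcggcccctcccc
Ccng1 chr11:40755412-40755521, minus strand: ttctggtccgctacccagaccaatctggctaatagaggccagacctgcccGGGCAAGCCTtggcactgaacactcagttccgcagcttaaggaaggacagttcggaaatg
Bax chr7:45467040-45467148, minus strand: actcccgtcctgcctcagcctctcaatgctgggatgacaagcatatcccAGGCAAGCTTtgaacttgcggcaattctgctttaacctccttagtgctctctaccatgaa
The Cdkn1a window holds 2 half-sites and the others 1 each. A match is a run of letters and does not show binding, and known p53 elements often lie outside this window.

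The core motif of FOXO transcription factors, TGTTTAC on either strand, was in 4 of the 50 promoters (8.0%), against 3.17% of all promoters. It occurred in Bcl2l11 and Bbc3, which rose with MCAO, and in Eda2r and Mdm2, which edgeR did not call. The windows of the 2 genes that rose are shown with the motif in capitals, read as its reverse complement in Bcl2l11.
Bcl2l11 chr2:128125788-128125867, plus strand: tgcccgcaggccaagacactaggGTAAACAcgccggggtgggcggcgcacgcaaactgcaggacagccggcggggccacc
Bbc3 chr7:16310044-16310150, plus strand: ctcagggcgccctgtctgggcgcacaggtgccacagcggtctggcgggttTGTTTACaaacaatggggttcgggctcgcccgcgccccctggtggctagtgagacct
Neither motif overlapped the other, apart from both being present in the same Mdm2 promoter.

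Of the 2 pore-forming effectors, Bak1 rose and Bax did not pass edgeR's test. Bak1 measured 16.7, 15.1 and 17.5 CPM in control, 26.2, 36.5 and 24.4 in MCAO, and 19.1, 20.2 and 18.01 with hypidone. The 3 groups did not overlap: MCAO was above hypidone and hypidone above control in every library. Its log2 fold change was 0.82 ± 0.17 with MCAO (edgeR adjusted p = 0.0134) and -0.60 ± 0.17 with hypidone (adjusted p = 0.0417). Separate entries of Ggnbp1 on the other strand share 18.2% and 7.4% of the exon bases of Bak1, and their reads could be counted with it. Other members have such overlaps on the other strand: Diablo 21.5% with B3gnt4, Bad 20.5% with Gpr137 and Bid 17.7% with Bcl2l13. On the same strand, Diablo shares 19.3% with Gm49027, Bcl2l2 13.3% with Gm20521 and Bax 12.2% with Gm45808. Bax was at 33.7, 30.4 and 33.3 CPM in control, 31.7, 44.2 and 34.2 in MCAO, and 25.8, 30.3 and 32.3 with hypidone. MCAO 5 was the single high library for Bax, and its log2 fold change of 0.18 ± 0.15 did not pass (edgeR adjusted p = 0.432).

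Of the 7 BH3-only genes tested, 4 rose with MCAO (57.1%, against 10.6% of all genes) and none fell. All 4 were lower with hypidone (57.1%, against 8.28% of all genes). With MCAO, 1 of the 2 effectors and 2 of the 4 anti-apoptotic genes rose (50% each). Bmf, which is tied to the cytoskeleton until released, was at 3.07, 3.37 and 2.76 CPM in control, 7.71, 22.5 and 14.2 in MCAO, and 3.89, 3.98 and 3.08 with hypidone. Its MCAO libraries all lay above the rest but differed 2.91-fold among themselves, with log2 fold changes of 2.27 ± 0.36 (edgeR adjusted p = 0.00627) and -2.02 ± 0.36 (adjusted p = 0.0102). Bcl2l11, which encodes BIM, measured 3.35, 4.10 and 4.63 CPM in control, 7.48, 20.8 and 13.2 in MCAO, and 5.87, 6.34 and 5.27 with hypidone. As for Bak1, the 3 groups did not overlap and hypidone lay between the others, with log2 fold changes of 1.78 ± 0.34 (edgeR adjusted p = 0.0107) and -1.24 ± 0.34 (adjusted p = 0.0377). In both genes MCAO 5 was highest and MCAO 4 lowest, the same order as the microglia and macrophage marker sums; the part of those cells in the result was not tested.

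Pmaip1 and Bbc3, which encode NOXA and PUMA and are classical p53 targets, were more even across the MCAO libraries. Pmaip1 was at 2.17, 1.06 and 2.79 CPM in control, 5.72, 7.11 and 6.12 in MCAO, and 2.76, 2.74 and 2.72 with hypidone. Every MCAO library was well above all others, with log2 fold changes of 1.65 ± 0.35 (edgeR adjusted p = 0.0145) and -1.20 ± 0.34 (adjusted p = 0.0445). Bbc3 measured 4.63, 5.11 and 4.48 CPM in control, 9.58, 7.45 and 9.01 in MCAO, and 4.87, 5.46 and 3.28 with hypidone. Here MCAO 5 was the lowest MCAO library, still above every other, and the log2 fold changes were 0.87 ± 0.24 (edgeR adjusted p = 0.0345) and -0.94 ± 0.24 (adjusted p = 0.0316). The Bbc3 call with MCAO was lost without control 4 (adjusted p = 0.102), control 5 (0.0519), control 6 (0.113), MCAO 4 (0.0544), MCAO 6 (0.0963), hypidone 2 (0.0581) or hypidone 7 (0.0539), its log2 fold change remaining between 0.79 and 0.93.

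The 3 other tested BH3-only genes did not pass edgeR's test. DESeq2 called Bid lower with hypidone, and limma voom called Bid and Hrk higher and Bad lower with MCAO, and each in the opposite direction with hypidone. Bid, which Casp8 cleaves, had its MCAO libraries above control and above hypidone, at 7.41, 11.3 and 9.62 CPM in control, 14.3, 14.98 and 11.6 in MCAO, and 8.69, 8.17 and 9.55 with hypidone (log2 fold change 0.53 ± 0.20, edgeR adjusted p = 0.0887, and -0.63 ± 0.20, adjusted p = 0.06). The second passed without control 5 (adjusted p = 0.045). Hrk, a neuronal BH3-only gene, was at 17.2, 57.6 and 19.0 CPM in control, 33.3, 47.2 and 51.9 in MCAO, and 25.0, 22.9 and 15.2 with hypidone. The highest of all 9 libraries was control 5, the one with the high hippocampal and choroid plexus markers, whose part in this value was not tested. Over all libraries the log2 fold change of Hrk was 0.50 ± 0.44 with MCAO (edgeR adjusted p = 0.441), but without control 5 it was 1.29 and passed (adjusted p = 0.0152), as did the difference with hypidone (-1.06, adjusted p = 0.0155). Bad, whose product is switched off by phosphorylation, was at 32.7, 24.4 and 30.1 CPM in control, 25.7, 29.6 and 22.6 in MCAO, and 28.4, 30.5 and 30.7 with hypidone, with overlap throughout (-0.16 ± 0.15 with MCAO, edgeR adjusted p = 0.468).

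Among the 4 anti-apoptotic genes, Bcl2l1 and Mcl1 rose with MCAO and were lower with hypidone. Bcl2l1, which encodes BCL-XL, the main anti-apoptotic member of adult neurons, measured 98.7, 112.0 and 108.6 CPM in control, 166.4, 136.6 and 172.7 in MCAO, and 100.3, 106.7 and 105.2 with hypidone. The MCAO libraries were above a narrow band of the other 6, with MCAO 5 the lowest of them, and the log2 fold changes were 0.58 ± 0.12 (edgeR adjusted p = 0.0131) and -0.61 ± 0.12 (adjusted p = 0.0131). Mcl1, whose protein turns over fast, was at 87.5, 82.6 and 79.9 CPM in control, 107.5, 195.1 and 161.5 in MCAO, and 92.3, 94.3 and 85.5 with hypidone. Its MCAO libraries were all above the rest, here with MCAO 5 the highest, and the log2 fold changes were 0.89 ± 0.19 (edgeR adjusted p = 0.0148) and -0.77 ± 0.19 (adjusted p = 0.0273). The Bcl2l1 call with MCAO was lost without control 4 (adjusted p = 0.0554), control 6 (0.0507) or MCAO 6 (0.0551), and that of Mcl1 without control 6 (0.0602).

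Bcl2 and Bcl2l2 did not pass edgeR's test, and limma voom called Bcl2 lower with MCAO and higher with hypidone. Bcl2, the founding member, was at 21.2, 13.9 and 18.9 CPM in control, 11.03, 18.9 and 14.4 in MCAO, and 20.4, 18.7 and 18.5 with hypidone, with overlapping groups (log2 fold change -0.28 ± 0.22 with MCAO, edgeR adjusted p = 0.393). Bcl2l2, which encodes BCL-W, was at 162.1, 155.4 and 164.6 CPM in control, 193.2, 115.6 and 153.7 in MCAO, and 158.7, 158.3 and 153.3 with hypidone. Its MCAO libraries spread to both sides of all others, and the fold change of -0.06 ± 0.17 did not pass (edgeR adjusted p = 0.825).

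Both death receptors rose with MCAO and were lower with hypidone. Tnfrsf10b, the mouse receptor for TRAIL, was at 0.160, 0.353 and 0.601 CPM in control, 1.36, 3.31 and 5.05 in MCAO, and 0.288, 0.561 and 0.381 with hypidone. All MCAO libraries were above all others, though the gene had only 439 counts in all, and the log2 fold changes were 3.11 ± 0.64 (edgeR adjusted p = 0.0131) and -2.97 ± 0.63 (adjusted p = 0.0171). Fas, the receptor for Fas ligand, measured 1.31, 1.41 and 2.07 CPM in control, 3.50, 6.80 and 3.73 in MCAO, and 1.44, 1.505 and 1.85 with hypidone. MCAO 5 was highest and the other two MCAO libraries were close to each other, with log2 fold changes of 1.55 ± 0.36 (edgeR adjusted p = 0.0204) and -1.55 ± 0.36 (adjusted p = 0.0229). Without control 4 the Fas call with MCAO was lost (adjusted p = 0.076).

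None of the 4 caspases passed edgeR's test. DESeq2 called Casp6 and Casp8 higher with MCAO and Casp2 lower with hypidone. Limma voom called Casp2, Casp6 and Casp8 higher and Casp9 lower with MCAO, and Casp2 and Casp6 lower and Casp9 higher with hypidone. Casp8, the initiator below the death receptors, was at 2.27, 3.29 and 2.61 CPM in control, 1.96, 21.4 and 5.85 in MCAO, and 3.17, 4.19 and 3.95 with hypidone. The MCAO libraries ran from below every other library to the highest of all, a 10.9-fold range, in the same order as the microglia marker sums of 723.7, 2989 and 1391 CPM, and the part of those cells was not tested. Its log2 fold change of 1.84 ± 0.70 with MCAO did not pass (edgeR adjusted p = 0.0892) and was 0.53 without MCAO 5, while without MCAO 4 it was 2.32 and passed (adjusted p = 0.0102). The difference with hypidone was -1.37 ± 0.68 (edgeR adjusted p = 0.187), -0.069 without MCAO 5, and -1.85 with a passed test without MCAO 4 (adjusted p = 0.0247).

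Casp6, an executioner caspase, showed the same order, at 2.75, 3.31 and 2.04 CPM in control, 2.25, 11.6 and 5.93 in MCAO, and 3.11, 2.66 and 2.90 with hypidone (log2 fold change 1.29 ± 0.51, edgeR adjusted p = 0.0999). Without MCAO 4 it passed in both comparisons (1.69, adjusted p = 0.00954, and -1.60, adjusted p = 0.0137). Casp2, a nuclear caspase activated by stress, had the lowest p of the 4 with MCAO after Casp8 and Casp6, with MCAO libraries at 8.93, 12.3 and 10.6 CPM against 7.45 to 8.74 in control and 6.91 to 8.15 with hypidone. Those groups did not overlap, yet 0.37 ± 0.18 (edgeR adjusted p = 0.177) and -0.47 ± 0.18 (adjusted p = 0.106) did not pass, and without MCAO 4 the latter did (-0.58, adjusted p = 0.0472). Casp9, the initiator activated by the apoptosome, had the highest level of the 4 per length, at 21.6, 25.4 and 27.2 CPM in control, 23.97, 22.9 and 19.2 in MCAO, and 25.5, 25.3 and 23.0 with hypidone. Its groups overlapped (-0.17 ± 0.14 with MCAO, edgeR adjusted p = 0.424).

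In the mitochondrial branch, Cycs fell with MCAO and was higher with hypidone. Cycs, the cytochrome c of somatic cells and an electron carrier of respiration as well as a death signal, measured 127.9, 93.4 and 103.3 CPM in control, 66.1, 53.5 and 59.4 in MCAO, and 100.8, 96.6 and 115.6 with hypidone. All MCAO libraries were below all others and close to each other, with log2 fold changes of -0.86 ± 0.15 (edgeR adjusted p = 0.00732) and 0.81 ± 0.15 (adjusted p = 0.0107). Neuron markers summed to 11329, 5894 and 8193 CPM in the MCAO libraries, 8249 to 12621 in control and 11131 to 12177 with hypidone, and 1 of the 10 fell with MCAO; their part in the Cycs values was not tested.

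Apaf1, the scaffold of the apoptosome, was at 6.26, 19.7 and 6.79 CPM in control, 11.5, 30.1 and 19.9 in MCAO, and 8.67, 7.05 and 6.80 with hypidone. Control 5 was again the high control library, as for Hrk, and the hypidone libraries lay below all MCAO libraries. Neither difference passed over all libraries (0.91 ± 0.47, edgeR adjusted p = 0.197, and -1.45 ± 0.48, adjusted p = 0.0675). Without control 5 both did, at 1.65 (adjusted p = 0.0216) and -1.44 (adjusted p = 0.018), and the second also passed without MCAO 4 (-1.73, adjusted p = 0.0311). DESeq2 also called Apaf1 lower with hypidone, and limma voom called it in both comparisons. Diablo, which frees caspases from their inhibitors, was at -0.29 ± 0.17 with MCAO (edgeR adjusted p = 0.261).

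Of the 3 inhibitors of apoptosis, Birc3 rose with MCAO. Birc3, a ubiquitin ligase of TNF receptor signalling and a target of NF-kappaB, was at 2.04, 1.63 and 2.70 CPM in control, 6.11, 17.1 and 14.3 in MCAO, and 1.90, 2.74 and 1.90 with hypidone. Its MCAO libraries were all above the rest, with MCAO 4 the lowest, and the log2 fold changes were 2.56 ± 0.41 (edgeR adjusted p = 0.00626) and -2.52 ± 0.41 (adjusted p = 0.00747). Its close relative Birc2 measured 29.9, 29.9 and 27.9 CPM in control, 33.5, 36.5 and 42.1 in MCAO, and 28.4, 27.7 and 27.3 with hypidone. No groups with MCAO overlapped, but the test passed for hypidone (-0.43 ± 0.12, edgeR adjusted p = 0.0409) and not for MCAO (0.35 ± 0.12, adjusted p = 0.0622), where it passed without MCAO 4 (0.42, adjusted p = 0.0308). Xiap, the direct inhibitor of caspases, was at 110.1, 98.4 and 106.7 CPM in control, 133.5, 139.9 and 113.9 in MCAO, and 111.1, 112.1 and 105.1 with hypidone (0.30 ± 0.11 with MCAO, edgeR adjusted p = 0.0848). DESeq2 called both Birc2 and Xiap higher with MCAO, and limma voom Birc2.

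Leaving out each of the 9 libraries in turn kept 10 of the 15 calls with MCAO, those of Cdkn1a, Trp53inp1, Zmat3, Bak1, Pmaip1, Bcl2l11, Bmf, Tnfrsf10b, Cycs and Birc3, and 3 of the 16 calls with hypidone, those of Cdkn1a, Trp53inp1 and Birc3. The number of genes lower with hypidone fell from 14 to 4 without MCAO 6, to 4 without hypidone 2, to 4 without hypidone 7, to 3 without hypidone 8, to 8 without control 4 and to 9 without control 6. The share of all genes called lower fell as well, from 8.28% to 2.28%, 1.66%, 1.56%, 1.55%, 5.97% and 5.43% in the same order. Without hypidone 8 alone the calls of Bmf (edgeR adjusted p = 0.0526) and Cycs (0.0521) were lost. Zmat3 was lost without MCAO 6 (0.054), hypidone 2 (0.0573) or hypidone 7 (0.0545). Bcl2l1, Mcl1, Tnfrsf10b and Fas were lost without MCAO 6 or any hypidone library, with adjusted p of 0.0519 to 0.107. Bak1, Bbc3, Bcl2l11, Birc2 and Sesn2 were lost in those cases and also without control 4 or control 6, Pmaip1 in those of MCAO 6, any hypidone library and control 4, Bcl2l11 and Pmaip1 also without MCAO 5, and Sesn2 also without MCAO 4, with adjusted p of 0.0505 to 0.148.

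The MCAO libraries differed among themselves by more than 1.5-fold for 8 of the 15 genes called with MCAO. By that measure 21 of the 40 tested genes (52.5%) were even, against 47.1% of all genes, so the members were spread much as other genes were. Sesn2 was the most even, with a highest to lowest ratio of 1.02, and among called genes Zmat3 (1.20), Cycs (1.23), Pmaip1 (1.24), Bcl2l1 (1.26), Bbc3 (1.29), Trp53inp1 (1.36) and Bak1 (1.497) were even. The uneven called genes were Cdkn1a (1.75), Mcl1 (1.81), Fas (1.94), Bcl2l11 (2.78), Birc3 (2.80), Bmf (2.91), Perp (2.98) and Tnfrsf10b (3.70). MCAO 5 was the highest MCAO library for 9 of the 13 genes that rose, MCAO 4 for Cdkn1a and Bbc3, and MCAO 6 for Bcl2l1 and Tnfrsf10b. Over all genes, MCAO 5 was the highest for 6338 of 14756 tested and for 1458 of the 3015 called with MCAO in either direction. MCAO 4 exceeded all 6 control and hypidone libraries for 19 of the 40 tested genes and lay below all 6 for 10, against 29.2% and 30.7% of all genes. The 19 include 12 of the 13 genes called higher, all but Perp, and the 10 include Zmat3 and Cycs, calls that MCAO 4 itself helped to make. Its microglia markers summed to 723.7 CPM, above the control libraries (553.8 to 601.5) and within the range of the hypidone libraries (609.0 to 732.9), and the part of microglia in these values was not tested.

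**Figure D4:**
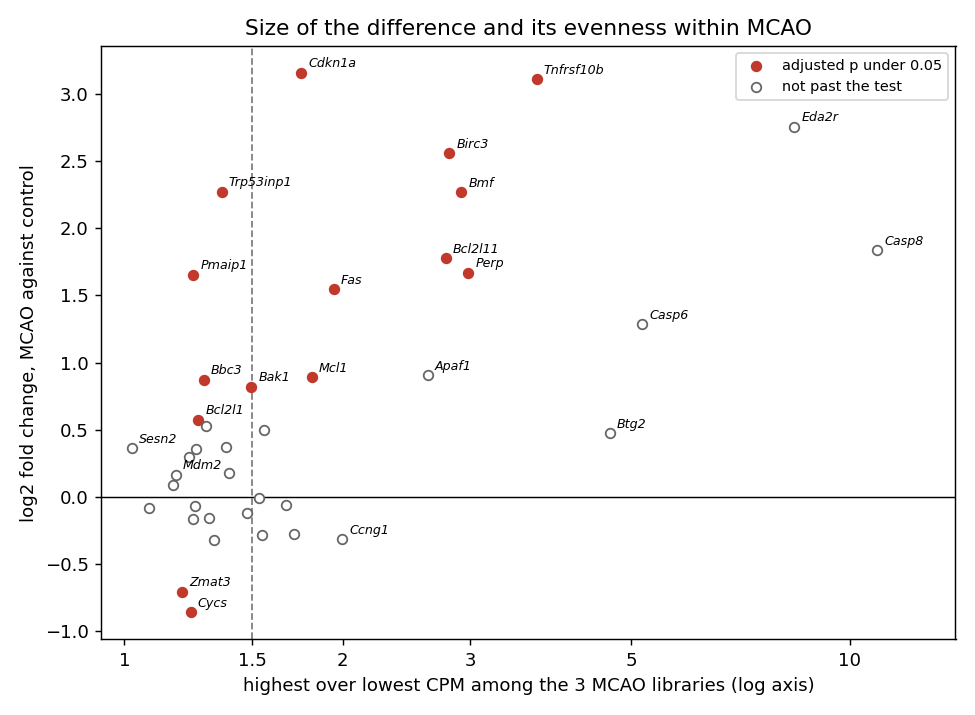
Log2 fold change with MCAO against the ratio of the highest to the lowest of the 3 MCAO libraries (log axis), 1 point a gene, filled for an adjusted p under 0.05, with a dashed line at 1.5. Trp53inp1 and Pmaip1 combine a large difference with an even group, and Eda2r, Casp6 and Casp8 lie far to the right and did not pass edgeR's test.

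Levels between genes were compared per length, in the deposited FPKM averaged over the 9 libraries. Ei24 was highest at 58.0 FPKM, followed by Ccng1 at 38.2, Bax at 35.6 and Bcl2l2 at 30.6. Cdkn1a, next at 29.8 FPKM, ranged from 3.88 to 81.0 FPKM over the libraries, so that its place in the order depended on the group, and the ranges of neighbours in the order mostly overlapped. The 4 BH3-only genes that rose were low: Bbc3 averaged 1.84, Pmaip1 1.40, Bmf 1.32 and Bcl2l11 1.14 FPKM, against 18.6 for Bad, which edgeR did not call. Of the anti-apoptotic genes, Bcl2l2 was highest and Bcl2 lowest at 2.36 FPKM, and Bcl2l1 was at 19.1 ± 1.51 FPKM in control and 29.2 ± 2.85 in MCAO (SD, n = 3). The death receptors Fas, at 1.09 FPKM, and Tnfrsf10b, at 0.43, and the genes Gdf15, Eda2r and Bik, at 0.12 or less, closed the order.

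Hypidone against control called none of the 40 genes, as none of the 14756 genes tested was called (0%), and DESeq2 and limma voom called none of the 40 either. No member had an unadjusted p under 0.05, against 131 of all genes (0.888%). The log2 fold changes ran from -0.57 ± 0.44 for Hrk to 0.79 ± 0.49 for Perp, with a median of 0.039. The hypidone libraries lay above all control libraries for 3 genes, Cdkn1a (0.55 ± 0.34), Bak1 (0.22 ± 0.17) and Bcl2l11 (0.53 ± 0.34), against 3.86% of all genes, and below them for none, against 2.71%. A missed threshold with 3 libraries a group does not show that the 2 groups were alike.

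The rest of the pathway was read from a list of 74 other genes, of which 68 were tested. With MCAO 13 of them rose and 3 fell, 19.1% and 4.41% against 10.6% and 9.81% of all genes. With hypidone 9 were lower and 2 higher, 13.2% and 2.94% against 8.28% and 8.23%. This list too was chosen with earlier results of these data known. By lowest adjusted p, the first was Sesn1, the p53-responsive sister of Sesn2, with 80.9, 67.4 and 70.9 CPM in control, 229.4, 153.6 and 173.3 in MCAO, and 74.6, 73.1 and 78.7 with hypidone (1.34 ± 0.16, edgeR adjusted p = 0.00272, and -1.30 ± 0.16). Ddit4, an inhibitor of mTOR signalling induced by hypoxia and by p53, had 1.08 ± 0.18 and -1.45 ± 0.19, and both differences passed. Trp53bp1, a DNA break adaptor, fell by 0.70 on the log2 scale with MCAO and was 0.63 ± 0.13 higher with hypidone. The TNF receptor Tnfrsf1a, at 15.4, 88.5 and 45.7 CPM in MCAO against 9.01 to 10.7 in control, had 2.32 ± 0.51 and -1.72 ± 0.50, with the MCAO libraries in the order of the microglia markers. Bcl2a1b, an anti-apoptotic gene of blood cells whose near-identical copies make its counts uncertain, had 3.87 ± 0.79 and -3.37 ± 0.77. The third sestrin, Sesn3, had 0.73 ± 0.18 with MCAO and did not pass with hypidone (-0.50 ± 0.18, edgeR adjusted p = 0.0775).

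In the authors' deposited table, 13 of the members were higher and 2 lower with MCAO at a q-value under 0.05, and 2 were higher and 17 lower with hypidone. All 15 and all 16 calls made here were also called there, in the same direction. That table comes from the same 9 libraries, so the match is not independent support. The share of all genes called there was not computed, so these counts have no background.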

How the data were processed

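RNA was sequenced from mouse brain, 3 libraries in each of 3 groups, taken from the labels. The authors deposited a table of raw counts for each gene symbol and one of FPKM. Their table of comparisons, also deposited, holds a ratio, the fold change, and a q-value for each gene. The submitters' processing notes name mm10 and DESeq2, with no role. No aligner, counter or strand setting is named, so where genes overlap or have near-identical copies the reads may be assigned to either.

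Counts of genes kept by filterByExpr (14756 of 18138) were TMM-scaled and fitted in 1 quasi-likelihood model over all 9 libraries (edgeR 4.0.16, R 4.3.3, 6 residual degrees of freedom). Tests were two-sided F tests with Benjamini-Hochberg adjustment over all genes at 0.05, and a standard error is the size of the log2 fold change over the square root of F. The fit was checked on simulated data. Deposited FPKM served to compare levels between genes and, as log2(FPKM + 1), for an alternative in limma 3.58.1.

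The members and lists were chosen with earlier results of these data known. By rule, members called with MCAO or with hypidone, the p53 gene, and the highest, lowest and lowest-p member of each role got a value in every library. Ccng1, Bid, Hrk, Casp2, Casp6 and Xiap were added after their values were seen. Of the other pathway genes, the 6 called with the lowest adjusted p were named. Positions are from GENCODE M21 and promoters from RefSeq, and windows overlapping an exon were not printed. Alternatives were other scalings, filters and tools (DESeq2 1.42.0, limma voom), fits of the compared groups alone, a replicate block and leaving out each library.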

Additional observations from a re-analysis of the deposited data

How the results depend on the processing

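Counts of called genes moved most with the tool and with the libraries in the fit. For MCAO against control, 13 genes higher and 2 lower became 22 and 7 with limma voom with quality weights. They became 4 and 1 when only the groups compared were fitted. The shares of all genes moved too, from 10.6% higher and 9.81% lower to 24.7% and 25.6% with limma voom and 2.38% and 2.33% with only the groups compared. Leaving out each library gave 9 to 15 higher and 2 lower, against 3.19% to 15.7% and 3.98% to 12.8% of all genes. DESeq2 gave 18 and 2, against 16.1% and 14.2% of all genes. For hypidone against MCAO, 2 higher and 14 lower became 8 and 21 with limma voom (26.5% and 25.2% of all genes). There, leaving out each library gave 1 to 3 higher and 3 to 17 lower, against 2.10% to 11.7% and 1.55% to 14.1% of all genes. With only the groups compared they were 2 and 11, against 7.21% and 6.66% of all genes. Why that fit changed the 2 comparisons so differently was not tested. Under every alternative other than the replicate block, Cdkn1a, Trp53inp1, Bmf, Cycs and Birc3 kept their call with MCAO, and Cdkn1a, Trp53inp1 and Birc3 with hypidone. For hypidone against control every alternative called 0 members.

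Control and MCAO share the title numbers 4, 5 and 6. Deviations of libraries with the same number correlated at 0.118, 0.123 and -0.042, and those with different numbers at -0.151 to 0.124. Deviations from a mean of 3 libraries are not independent of each other. These values therefore cannot show whether the numbers mark a pairing. With the number as a replicate block, in a fit that also leaves out the hypidone libraries, 0 members were higher and 0 lower with MCAO, and 0 of all 14489 genes tested were called. Without the block the same libraries gave 4 and 1.

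Signs changed for genes that edgeR did not call over all libraries; of these, limma voom called Btg2 in both comparisons and Trp53 with hypidone. Mdm4 with MCAO was 0.046 with library totals, 0.16 with limma voom and 0.012 with limma on FPKM. Over the fits that left out 1 library, log2 fold changes with MCAO ran from -0.29 to 0.013 for Trp53, -0.11 to 0.16 for Mdm4, -0.20 to 0.041 for Phlda3, -0.31 to 0.85 for Btg2, -0.0032 to 0.16 for Ei24 and -0.26 to 0.13 for Bcl2l2. With hypidone they ran from -0.036 to 0.24 for Trp53, -0.21 to 0.062 for Mdm4, -0.59 to 0.57 for Btg2, -0.12 to 0.0079 for Ei24 and -0.16 to 0.22 for Bcl2l2.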

Other observations

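The ratio of Bax to Bcl2, often used as a summary of the balance between death and survival, was computed from FPKM in each library. It was 12.6, 17.3 and 13.96 in control, 22.8, 18.5 and 18.8 in MCAO, and 10.02, 12.9 and 13.9 with hypidone. The 3 MCAO libraries lay above all 6 others, narrowly so for MCAO 5 (18.5) and control 5 (17.3). Neither gene passed edgeR's test alone, no test was made of the ratio, and how often other gene pairs separate in this way was not computed. The ratios of Mdm2 to Trp53 and of Mdm4 to Mdm2 were also computed, and in both MCAO overlapped control. The ratio of Bcl2l11 to Bcl2l1 was 0.0296 ± 0.00347 in control, 0.0714 ± 0.0432 in MCAO and 0.0439 ± 0.00405 with hypidone (SD, n = 3), with MCAO 4 at 0.0352 below the hypidone libraries. The untested BH3-only gene Bik reached 1.02 CPM in MCAO 5, against 0.137 CPM or less in the other libraries. Markers of red blood cells summed to 4.31 to 28.03 CPM in MCAO, 41.9 to 72.7 in control and 71.3 to 186.5 with hypidone, and all 5 of them were higher with hypidone than in MCAO by edgeR's test; their part in the results above was not tested.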
